A study of Homo sapiens with 8 samples.

Results

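The regions described here are the 500 stretches of the human genome that carried an ATAC-seq peak in each of 8 libraries of a lung cancer cell line. They were chosen by listing alone: the peak intervals of all 8 lists were merged wherever they overlapped or touched, and a merged region on chromosomes 1 to 22 or X was kept if a peak of every list overlapped it by at least 1 bp. The rule kept 500 of the 46401 merged regions on these chromosomes, a share of 1.08% with a 95% exact Clopper-Pearson interval of 0.986% to 1.18%, out of 46665 merged regions in all. A further 42 regions listed 8 times lay on other sequences and are not described. Whether a region is listed depends on its height and width in each library, so the number, width, fold and summits of these regions are given as descriptions, with no test against other regions. Intervals on shares cover counting error over regions only.

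The cells were H1650, which grow from a non-small cell lung cancer, in 4 groups of 2 libraries. siMena11a cells received a mix of small interfering RNAs (siRNAs) against exon 11a of hMENA, siMena cells a pool against hMENA as a whole, and siControl cells a pool without a human target, each at 20 nmol/L; untreated cells received none. hMENA, the product of ENAH, helps actin filaments grow at the cell edge, and the isoform with exon 11a is the form typical of epithelial cells. All libraries come from the same line, the knockdown cannot be read from peak lists, and nothing states that the 2 replicates of a group were separate cultures.

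ATAC-seq uses a transposase that cuts and tags DNA where it is not wrapped tightly in nucleosomes. Promoters and enhancers in use stand out as narrow peaks of tags, and promoters of genes that most cells need are usually open whatever the treatment. Listing alone does not tell a region open in all these conditions from one rich in tags for another reason. The files use the hg19 build; no annotation of that build was used here, so genes near the regions are not analysed here.

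The libraries differed in ways that bear on every result. Replicate 2 of each transfected group listed few peaks: 2832 in siMena11a, 1020 in siMena and 5231 in siControl, against 35472, 14678 and 27304 in replicate 1 of the same groups, while untreated cells had 34782 and 22424. These replicate 2 libraries also had the highest genome-wide background. This is the lowest local background the peak caller used in a library, in tags, and it is recovered here from the deposited values as a stand-in for depth. It was 0.881 and 2.54 tags in siMena11a replicates 1 and 2, 0.725 and 2.88 in siMena, 0.935 and 2.27 in siControl, and 0.538 and 1.09 in untreated cells. The short lists thus came from the libraries with the higher background by this stand-in. Read totals were not used, so whether these libraries held more tags was not tested. The part of library quality in any difference below was not tested, and a p-value here measures only the spread between these libraries.

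A single library decided which regions are listed in all 8. Of the 1471 regions listed in 7 lists, 1396 lacked siMena replicate 2, a share of 94.9% with an interval of 93.7% to 96.0%. A further 38 lacked siMena11a replicate 2, 21 untreated replicate 1, 7 siControl replicate 2 and 5 untreated replicate 2. Without the siMena replicate 2 list, 1896 regions would be listed in all the others. When only the 4 replicate 1 lists had to hold a region, 12807 were kept, and with only the 4 replicate 2 lists 568 were kept. The 500 members make up 57.4% of the 871 regions of siMena replicate 2 on these chromosomes and 18.9% of the 2649 of siMena11a replicate 2, but 1.44% of the 34676 of siMena11a replicate 1. They are thus most of the shortest list and a small part of the long ones.

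The strongest regions just outside the rule were as high as many members. They were the 3 regions of 7 lists with the highest lowest percentile, where a percentile is the place of a region among all regions of a list by fold, with 100 the highest. All 3 lie on chromosome 5 and all 3 lacked siMena replicate 2. The strongest, chr5:143549907-143550759, had folds of 13.9 and 9.31 in siMena11a replicates 1 and 2, 13.1 in siMena replicate 1, 13.8 and 8.57 in siControl, and 14.9 and 11.5 in untreated cells. A fold is the authors' ratio of the tags over a summit to the local background, with 1 added to each. Its lowest percentile in the 7 lists was 97.2. The other two, chr5:92414116-92414799 and chr5:114880074-114880857, had lowest percentiles of 94.6 and 94.8. At the other edge, the lowest percentile of any member was in siMena replicate 1, where chr8:125641756-125642352 had a fold of 3.39, 11 tags at its summit and a percentile of 0.461.

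Members were wide regions built around a short shared part. Their median width was 954.5 bp, with an interval of 922 to 985 bp and a range of 236 to 1976 bp. The median was 864 bp for regions of 7 lists, 757 bp for 6 lists and 676 bp for 5 lists, and 717 bp for the 10892 regions of 5 to 7 lists together. Merging over more lists can only widen a region. The part of a member covered by a peak of every list had a median of 251 bp, which is 31.1% of the width, and in 8 members no base was shared by all 8 lists. The peak holding the strongest summit had a median width of 882 and 428 bp in siMena11a replicates 1 and 2, 658.5 and 288.5 bp in siMena, 784 and 529.5 bp in siControl, and 791 and 728.5 bp in untreated cells. Peaks at the same members were narrower in replicate 2 of every group, least so in untreated cells.

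The share of regions listed in all 8 lists did not climb steadily with width. Among regions of 5 to 8 lists, members made up 5.40% of those up to 400 bp wide (33 members, interval 3.75% to 7.50%), 1.39% at 401 to 600 bp (38 members, interval 0.983% to 1.90%) and 1.98% at 601 to 800 bp (74 members). The share was 5.35% at 801 to 1000 bp, 11.1% at 1001 to 1200 bp and 15.3% above 1200 bp, the last with an interval of 12.5% to 18.5%. The narrowest class thus held a larger share of members than the 2 classes above it. These classes were drawn after the widths were seen.

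**Figure D1:**
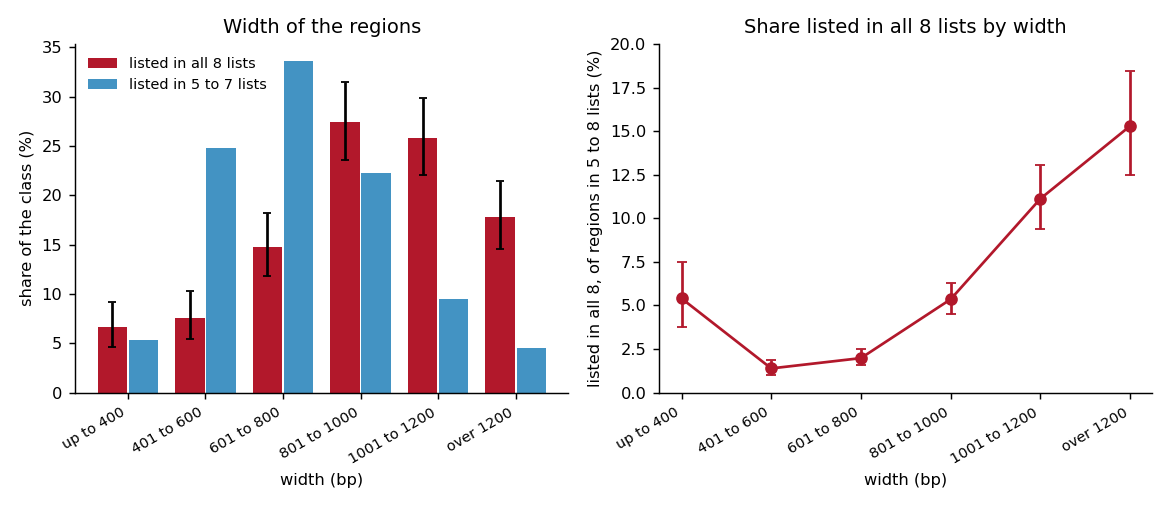
Left, the share of the 500 regions listed in all 8 lists and of the 10892 regions listed in 5 to 7 lists that fall in each class of width (bars, %; error bars, 95% exact intervals for the members). Right, the share of regions of 5 to 8 lists that are listed in all 8, by width (points, %; bars, 95% exact intervals): it is 5.40% up to 400 bp, 1.39% at 401 to 600 bp and 15.3% above 1200 bp.

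Most members had a single summit in 7 of the 8 lists, the exception being siMena11a replicate 1. The mean number of summits per member was 1.72 and 1.30 in siMena11a replicates 1 and 2, 1.55 and 1.14 in siMena, 1.64 and 1.42 in siControl, and 1.60 and 1.58 in untreated cells. The share with exactly 1 summit ran from 47.6% in siMena11a replicate 1 to 88.8% in siMena replicate 2. Group means were 1.51 ± 0.300 in siMena11a, 1.34 ± 0.288 in siMena, 1.53 ± 0.157 in siControl and 1.59 ± 0.013 in untreated cells (SD, n = 2 each). No comparison between groups exceeded the spread between replicates: the difference was -0.021 for siMena11a minus siControl, -0.185 for siMena minus siControl, -0.064 for siControl minus untreated and 0.164 for siMena11a minus siMena. The two-sided exact permutation p was 1.00, 0.667, 1.00 and 0.667 in that order, and 2 libraries against 2 cannot give a p below 0.33.

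The strongest summits of a member spanned a median of 124 bp over the 8 libraries. Over the 28 pairs of libraries, the median distance between the strongest summits of a member ran from 21 bp (siMena11a replicate 1 with untreated replicate 2) to 45.5 bp (siMena replicate 2 with either siMena replicate 1 or siControl replicate 2). All 8 strongest summits fell within 100 bp of each other in 192 members (38.4%) and within 50 bp in 72, while in 18 members they spanned more than 500 bp. The widest span, 1214 bp, was at chr5:10039-11804, which had 3 to 5 summits in each list.

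The widest members held the most summits. chr14:35015891-35017866, 1976 bp wide, had 2 and 1 summits in siMena11a replicates 1 and 2, 3 and 1 in siMena, 4 and 2 in siControl, and 2 and 5 in untreated cells. chr11:62607492-62609356, 1865 bp wide, had 3 and 1 in siMena11a, 3 and 1 in siMena, 4 and 1 in siControl, and 3 and 5 in untreated cells. In both, the transfected replicate 2 lists resolved fewer summits than the replicate 1 lists. They did not at chr15:20545527-20547487, 1961 bp wide, with 3 and 5 summits in siMena11a, 2 and 4 in siMena, 4 and 4 in siControl, and 2 and 3 in untreated cells.

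Members had higher folds than regions of 5 to 7 lists in all 8 libraries, and by much less in siMena replicate 2 than in the others. The median fold of the members was 10.8 and 5.64 in siMena11a replicates 1 and 2, against 8.70 and 4.58 for regions of 5 to 7 lists. It was 9.21 and 4.59 in siMena, against 6.25 and 4.29. It was 10.7 and 6.77 in siControl, against 7.85 and 4.90. In untreated cells it was 11.7 and 10.1, against 9.20 and 6.82. The 2 classes were closest in siMena replicate 2, where 141 regions of 5 to 7 lists are listed at all. Means over the libraries of a group were 8.23 ± 3.66 in siMena11a, 6.90 ± 3.27 in siMena, 8.74 ± 2.79 in siControl and 10.9 ± 1.14 in untreated cells (SD, n = 2 each). In the 4 comparisons made below, the means differed by less than the larger of the 2 SDs. Folds of different lists stand on different backgrounds, so these means are descriptions only.

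**Figure D2:**
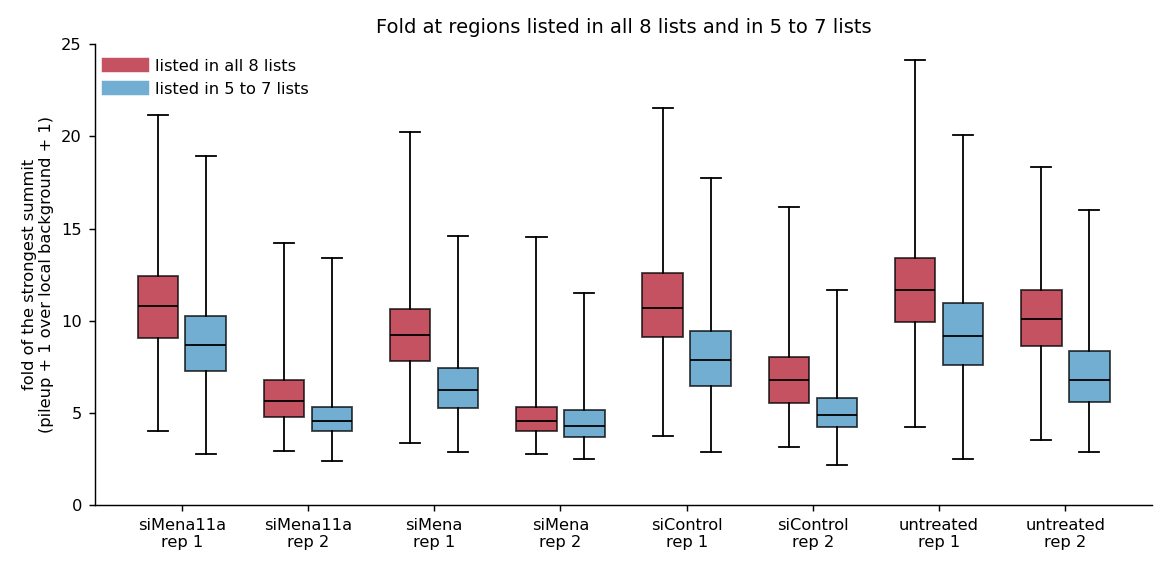
Fold of the strongest summit (linear axis, no unit) in each of the 8 libraries, for regions listed in all 8 lists (red) and in 5 to 7 lists (blue). Boxes span the quartiles with the median as a line, and whiskers reach the lowest and highest value; the red medians are 10.8 and 5.64 in siMena11a and 11.7 and 10.1 in untreated cells.

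Within their own lists, members ranked high in long lists and near the middle in the shortest. The median percentile was 92.8 and 77.9 in siMena11a replicates 1 and 2, 93.0 and 60.1 in siMena, 93.7 and 87.1 in siControl, and 93.3 and 93.1 in untreated cells. In siMena replicate 2 the members are most of the list they are ranked in, which holds their percentile near the middle. Behind these folds lay a median of 64 and 29 tags at the summit in siMena11a, 34 and 22 in siMena, 59 and 34 in siControl, and 57 and 51 in untreated cells. With 22 tags at a median summit, siMena replicate 2 gives the least precise folds.

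The order of the members by fold was shared among replicate 1 libraries and much less with siMena replicate 2. Spearman's rho of fold over the 500 members, given as a description since the members share libraries and local backgrounds, was 0.831 between siMena11a and siControl replicate 1, 0.823 between siMena11a and untreated replicate 1, and 0.745 between siMena11a and siMena replicate 1. It was 0.405 between the 2 siMena11a libraries, 0.356 between the 2 siMena libraries, 0.566 between the 2 siControl libraries and 0.763 between the 2 untreated libraries. Between replicate 2 libraries it was 0.636 for siMena11a with siMena, 0.699 for siMena11a with siControl and 0.568 for siMena with siControl. The lowest value, 0.257, was between siMena replicate 2 and untreated replicate 1. Between siMena replicate 2 and untreated replicate 2 it was 0.313, below the value for the 2 siMena libraries. Among the transfected libraries alone, siMena11a and siMena were each more alike in order with the others of the same number than with their own other replicate.

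The members that stayed near the top of every list were mostly narrow. Of the 10 members with the highest lowest percentile, 7 were under 400 bp wide and all 10 had a single summit in every library. The highest was chr9:83180523-83180784, 262 bp wide, with folds of 21.1 and 11.9 in siMena11a replicates 1 and 2, 20.2 and 11.9 in siMena, 21.5 and 11.7 in siControl, and 24.2 and 17.9 in untreated cells. Its summit had 51 and 41 tags in siMena11a, 48 and 45 in siMena, 55 and 38 in siControl, and 56 and 47 in untreated cells. Its percentile was at least 99.8 in each list, and its tag number varied little between libraries whose backgrounds differed several fold.

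A pair of narrow members sat side by side on chromosome 5. chr5:60057274-60057524 and chr5:60057684-60057938 lie 159 bp apart, the closest members of all, and both are among the 10. The first had 59 and 49 tags in siMena11a replicates 1 and 2, 49 and 39 in siMena, 53 and 45 in siControl, and 63 and 53 in untreated cells. The second had 48 and 43 in siMena11a, 41 and 38 in siMena, 45 and 37 in siControl, and 46 and 47 in untreated cells. Their strongest summits spanned 3 bp and 7 bp over the 8 libraries. Wider members among the 10 were the last region listed on chromosome 12, chr12:133841459-133841975, the last listed on chromosome X, chrX:155259869-155260487, and chr4:129002512-129003021.

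The 5 members with the lowest median percentile included the 2 widest, and 3 of the 5 lay within 1 Mb of the outermost region listed on their chromosome. The lowest, chr15:20545527-20547487 had folds of 4.19 and 3.61 in siMena11a replicates 1 and 2, 4.02 and 3.57 in siMena, 3.78 and 3.73 in siControl, and 4.49 and 3.54 in untreated cells. Its summit carried 28 and 75 tags in siMena11a, 25 and 73 in siMena, 27 and 74 in siControl, and 14 and 21 in untreated cells. Its local background was 4.35 to 8.44 times the genome-wide one, and its tags were highest in the libraries with the highest background. chr9:141122205-141122968, 752 bp from the end of the last region listed on chromosome 9, had folds of 5.25 and 5.39 in siMena11a, 5.22 and 5.54 in siMena, 4.46 and 5.90 in siControl, and 5.45 and 4.88 in untreated cells. These folds were flat across libraries, with none below 4.46 or above 5.90.

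The members are described in 3 sets, set by width and by the fold ratio between replicates, and drawn after the values were seen: narrow members, members that kept their fold, and the others. Whether the narrow or the fold-keeping regions are open chromatin was not tested. In the 443 members that are neither narrow nor keep their fold, the median summit had 67 and 28 tags in siMena11a replicates 1 and 2, 34 and 21 in siMena, 61 and 33 in siControl, and 59 and 53 in untreated cells. The median ratio of replicate 2 to replicate 1 tags within a member was 0.409 in siMena11a, 0.625 in siMena, 0.567 in siControl and 0.878 in untreated cells. Over the same pairs of libraries the genome-wide background went the other way, with ratios of 2.89, 3.97, 2.42 and 2.02.

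In the 33 members up to 400 bp wide, the median tags differed little between libraries. Their median summit had 42 and 36 tags in siMena11a replicates 1 and 2, 36 and 35 in siMena, 39 and 37 in siControl, and 40 and 40 in untreated cells. The ratio of the highest to the lowest tag number over the 8 libraries had a median of 1.53 in these 33, against 3.33 in the 443 others, and was under 1.5 in 15 of the 33 and 3 of the 443. The 3 narrow members that also kept their fold were exceptions, with ratios of 4.94 to 9.80. All 33 had a single summit in every list, and their median width was 287 bp, of which 74.4% was shared by all 8 lists. Their strongest summits spanned a median of 11 bp over the libraries, against 134 bp in the 443 others. Their lowest percentile was at least 90 in 22 of 33, against 13 of the 443. The set is defined by its merged width. A small width by itself keeps summits few and close together and the shared part large, so those values are not findings about the set. How far the width limit also favours steady tags was not tested.

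Steady tags were not particular to regions of 8 lists. Over the 7 libraries other than siMena replicate 2, the ratio was under 1.5 in 19 of the 33 narrow members (57.6%, interval 39.2% to 74.5%). It was under 1.5 in 10 of the 21 regions of that width that only siMena replicate 2 lacked (47.6%, interval 25.7% to 70.2%). Without a limit on width, the counts were 24 of 500 members (4.80%) and 12 of 1396 such regions (0.860%). Steady tags were thus more frequent among narrow regions on both sides of the rule.

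The narrow members lay on 13 chromosomes, with 8 of the 33 on chromosome 2. The narrowest, chr22:36281623-36281858 with 236 bp, had 36 and 34 tags in siMena11a replicates 1 and 2, 30 and 32 in siMena, 34 and 29 in siControl, and 33 and 31 in untreated cells. chr6:89264975-89265228 had 24 and 26 in siMena11a, 20 and 27 in siMena, 29 and 24 in siControl, and 24 and 31 in untreated cells, and no region of any list lies within 312660 bp of it. chr8:20408717-20409005 stood 244169 bp from its nearest neighbour, with 36 and 31 tags in siMena11a, 29 and 28 in siMena, 41 and 30 in siControl, and 33 and 35 in untreated cells. At these summits the local background was 1.00 to 1.78 times the genome-wide one. Over all 33 narrow members its median ran from 1.15 times in siMena replicate 2 to 2.71 times in untreated replicate 1.

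**Figure D3:**
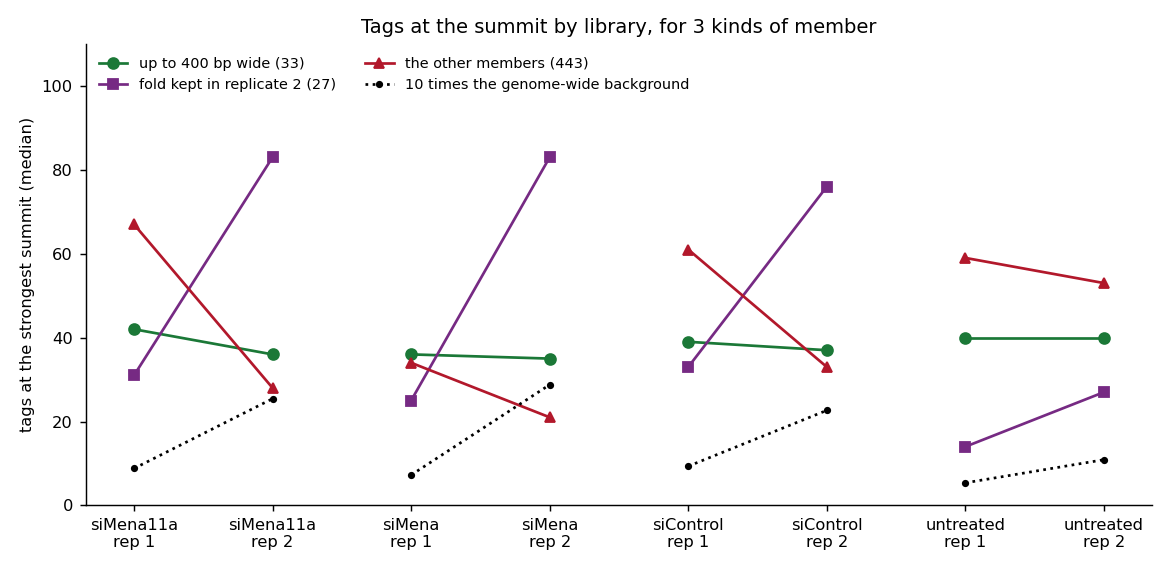
Median number of tags at the strongest summit (linear axis) in each library for 33 members up to 400 bp wide, 27 that kept their fold in replicate 2 and the other 443; 3 members belong to both of the first sets, and lines join the replicates of a group. The narrow members stay between 35 and 42 tags, those that kept their fold reach 83 in both siMena11a and siMena replicate 2, and the others fall to 28 in siMena11a replicate 2 against 67 in replicate 1; the dotted line is 10 times the genome-wide background.

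The remaining set is the members that kept their fold in replicate 2. The ratio of replicate 2 to replicate 1 fold had a median over the 500 members of 0.539 in siMena11a, 0.505 in siMena, 0.627 in siControl and 0.865 in untreated cells. This ratio compares folds of 2 lists with different backgrounds and is a description only. It was at least 0.8 in all 3 transfected groups in 27 members (5.40%). These were chosen by that ratio, which sets tags against local background, so neither their fold nor the rise of their tags with background is a finding about them, and a low fold in replicate 1 makes a high ratio easier to reach. Their median summit had 31 and 83 tags in siMena11a replicates 1 and 2, 25 and 83 in siMena, 33 and 76 in siControl, and 14 and 27 in untreated cells. Divided by the genome-wide background of the library, this was 35.2 and 32.6 in siMena11a, 34.5 and 28.8 in siMena, 35.3 and 33.5 in siControl, and 26.0 and 24.8 in untreated cells. Single members spread widely: the ratio of replicate 2 to replicate 1 tags in siMena11a ran from 1.12 to 5.44, against 2.89 for the genome-wide background.

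Among the 27, chr5:178012429-178012826 was the strongest. It had folds of 16.8 and 13.6 in siMena11a replicates 1 and 2, 14.7 and 14.6 in siMena, 11.9 and 16.2 in siControl, and 11.9 and 14.7 in untreated cells. Its tags were 53 and 97 in siMena11a, 42 and 116 in siMena, 37 and 105 in siControl, and 23 and 39 in untreated cells. At chr4:190154689-190155891 the tags were 54 and 126 in siMena11a, 58 and 135 in siMena, 59 and 128 in siControl, and 41 and 81 in untreated cells. A neighbouring member of the same kind, chr4:190156054-190156653, begins 162 bp farther on. chr20:47131596-47132998 had 31 and 115 tags in siMena11a, 31 and 122 in siMena, 35 and 115 in siControl, and 13 and 30 in untreated cells. In these 4 members replicate 2 had more tags than replicate 1 in every group.

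The members that kept their fold lay near the outermost region listed on their chromosome more often than the rest. This describes a set chosen after its values were seen. The outermost region need not lie at the chromosome end: on chromosome 15 the first region listed starts at 20076822. The fold-keeping member chr15:20545527-20547487 is counted as near it. Of the 27, 8 (29.6%, interval 13.8% to 50.2%) lay within 1 Mb of the outermost region listed on their chromosome, against 18 of the other 473 members (3.81%, interval 2.27% to 5.95%). Within 5 Mb of the longest stretch of a chromosome that no list covers, which usually holds the centromere, lay 3 of the 27 (11.1%) and 44 of the 473 (9.30%). Neighbours on chromosome 2, chr2:87623665-87624160 and chr2:87641696-87642239, both kept their fold and lie 17535 bp apart.

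chr8:82754082-82755166 also kept its fold, and was named for its rank in siControl against untreated cells. Its folds were 8.75 and 14.2 in siMena11a replicates 1 and 2, 9.55 and 13.5 in siMena, 9.82 and 13.7 in siControl, and 7.84 and 6.97 in untreated cells. Its tags were 44 and 83 in siMena11a, 33 and 77 in siMena, 42 and 70 in siControl, and 28 and 27 in untreated cells. All 6 transfected libraries had more tags there than both untreated libraries, as at chr20:47131596-47132998, and the 3 transfected replicate 2 libraries placed it at percentiles above 99. Transfected and untreated libraries also differ in background, and the part of the background in this difference was not tested.

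Members were spread over all 23 chromosomes studied, but unevenly. Chromosome 7 held 63 members (12.6%, interval 9.82% to 15.8%), against 7.01% of the regions of 5 to 7 lists. Chromosome 5 held 51 (10.2%, interval 7.69% to 13.2%), against 6.25%, and chromosome 8 held 42 (8.40%, interval 6.12% to 11.2%), against 4.41%. Chromosome 3 held 49 (9.80%), against 7.32%. At the low end, chromosome 19 held 3 (0.60%, interval 0.124% to 1.74%), against 3.76%, and chromosome X held 2 (0.400%), against 2.38%. Chromosome 1, with the most regions of all, held 45 (9.0%), close to its 9.48% of the regions of 5 to 7 lists.

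**Figure D4:**
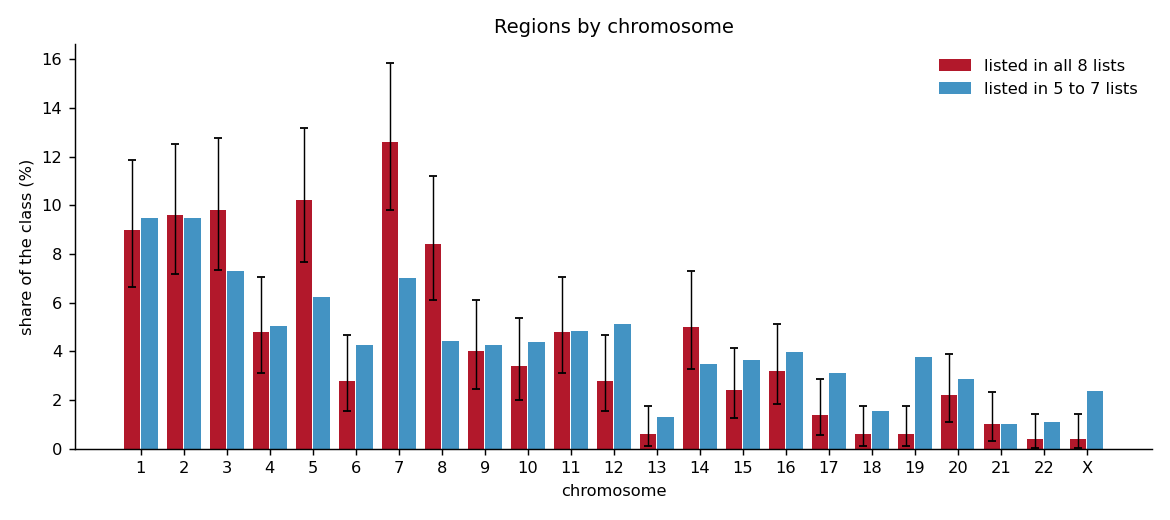
Share of the 500 regions listed in all 8 lists (red, with 95% exact intervals) and of the 10892 regions listed in 5 to 7 lists (blue) that lie on each chromosome (linear axis, %). Chromosomes 5, 7 and 8 hold 10.2%, 12.6% and 8.40% of the regions listed in all 8, and chromosomes 19 and X hold 0.60% and 0.400% of them.

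Within chromosomes, members often gathered on a single side of the longest uncovered stretch. On chromosome 8, 2 of 453 regions before it were members (0.442%), against 40 of 1716 after it (2.33%, interval 1.67% to 3.16%). On chromosome 5 the shares were 3.04% before it (23 of 757) and 1.29% after it (28 of 2176), and on chromosome 7 they were 2.89% (36 of 1247) and 1.64% (27 of 1644). On chromosome 6 none of 991 regions before it was a member, which allows a share of up to 0.372%, against 14 of 1287 after it (1.09%). The first member on chromosome 6 is chr6:89264975-89265228, with 1179 regions of any list and 8 regions of 7 lists before it. On chromosome X, 913 regions of any list and 11 regions of 7 lists came before the first member, chrX:125863369-125863627.

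Local background moved with some of these differences. It was measured in untreated replicate 1 at the summits of regions of 1 to 4 lists, as a multiple of the genome-wide background. On chromosome 8 its median was 1.34 before the longest uncovered stretch and 2.27 after it, on chromosome 5 it was 2.51 and 1.78, on chromosome 7 it was 2.53 and 1.75, and on chromosome 6 it was 1.45 and 1.56. The side with the larger share of members had the higher background in these 4, which were picked for their shares, and in 17 of the 23 chromosomes studied. Some of the 17 rest on few members: chromosome 21 had 1 member among 10 regions before the stretch, and chromosome 22 had 1 member on each side. Over whole chromosomes the relation was loose: chromosome 19, with 3 members, had a background of 2.04, equal to that of chromosome 7. Over the 23 chromosomes, which share the library, the share of regions that are members had a Pearson r of 0.407 and a Spearman rho of 0.404 with the background in untreated replicate 1, and 0.0504 and 0.114 with that in siMena11a replicate 1. The part of the background in these shares was not tested.

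The nearest other member was a median of 1.00 Mb away, with an interval of 0.736 to 1.17 Mb, and 63 members had another within 100 kb. The nearest region of any list was a median of 17.2 kb away, against 17.3 kb for regions of 7 lists and 13.1 kb for regions of 5 to 7 lists. It was within 100 kb for 470 members (94.0%), against 94.7% of the regions of 7 lists. Members were thus as far from other regions as regions of 7 lists were. The most isolated member was chr8:93977683-93978610, 669562 bp from any other region, with folds of 12.2 and 8.18 in siMena11a replicates 1 and 2, 12.3 and 4.13 in siMena, 12.9 and 8.05 in siControl, and 11.3 and 11.3 in untreated cells. Near the outermost region listed on a chromosome, which need not lie at its end, members were more frequent. Within 1 Mb of it lay 26 of 500 members (5.20%, interval 3.42% to 7.53%). The counts were 267 of 10892 regions of 5 to 7 lists (2.45%, interval 2.17% to 2.76%) and 20 of 1471 regions of 7 lists (1.36%). The first regions listed on chromosomes 1, 5, 7 and 18 were members: chr1:9939-10567, chr5:10039-11804, chr7:9911-10329 and chr18:9986-10664.

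To compare conditions, regions listed in all 4 libraries of a comparison were ranked by fold within each list, and a region was counted as higher if both libraries of the first group ranked it above both of the second, with no pairing of replicates. Ranks were used because a fold is comparable only within its list. There is no test per region, since 2 against 2 allows no small p. Each count of members is read against the share counted over all regions ranked. In the comparisons that involve siMena, the members are 500 of the 580 or 544 regions ranked, so that share is nearly their own. Comparisons that share a group are not independent, and siControl serves in 3 of the 4.

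In siMena11a against siControl, fewer members ranked higher than the regions ranked as a whole. Of the 500 members, 33 ranked higher in both siMena11a libraries (6.60%, interval 4.59% to 9.14%), against 11.0% of the 2001 regions ranked. There were 72 ranked lower (14.4%, interval 11.4% to 17.8%), against 12.2%. The labels state no pairing. With same-numbered libraries paired, which loosens the rule, 103 members ranked higher and 145 lower. These were 20.6% and 29.0% of members, against 25.4% and 25.5% of all regions ranked. The lean toward lower ranks depended on the regions of fewer lists: ranked among the members alone, 56 were higher and 61 lower. It also rested on siMena11a replicate 1 and on siControl replicate 2. Without siMena11a replicate 1, 39.6% of members ranked higher, against 32.9% of all regions ranked, and 28.2% ranked lower, against 32.9%. Without siControl replicate 2, 26.4% of members ranked higher, against 27.0% of all regions ranked. The share of members ranked lower was then below the 30.4% of all regions ranked. The largest gap was at chr9:15552532-15553601, ranked at percentiles 27.1 and 4.57 in siMena11a replicates 1 and 2, against 63.3 and 60.3 in siControl. Its tags were 42 and 13 in siMena11a, against 40 and 25 in siControl, so the tags were lower in replicate 2 and about equal in replicate 1. Among those ranked higher, chr4:120987520-120988699 had percentiles of 63.3 and 88.8 in siMena11a, against 31.2 and 40.0 in siControl, with 53 and 24 tags against 38 and 20.

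In siMena against siControl, the counts were close to the background, which is mostly made of the members themselves. Of the members, 63 ranked higher in both siMena libraries (12.6%), against 12.1% of the 580 regions ranked, and 61 ranked lower (12.2%), against 10.7%. Of the 80 regions of 5 to 7 lists ranked, 7 were higher (8.75%, interval 3.59% to 17.2%). Only 1 was lower (1.25%, interval 0.0316% to 6.77%). The largest lower gap was at chr1:238036728-238037329, with percentiles of 19.1 and 23.8 in siMena replicates 1 and 2, against 64.3 and 91.0 in siControl. Its tags were 14 and 17 in siMena, against 39 and 41 in siControl, and 44 and 23 in siMena11a and 31 and 55 in untreated cells. Both siMena libraries had fewer tags than the other 6 at this region. By fold this did not hold, as siMena replicate 1 had 6.64 and siMena11a replicate 2 had 6.03. Over all members siMena also had the lowest median tags of each replicate number, 34 and 22. At chr12:38450373-38451394 the tags were 18 and 19 in siMena, against 57 and 41 in siControl, with percentiles of 13.1 and 22.9 against 59.5 and 69.0. Of the members ranked higher, the narrow chrX:125863369-125863627 had percentiles of 93.3 and 90.8 in siMena, against 51.2 and 47.6 in siControl.

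A member on chromosome 5 appears in 3 comparisons that share the siControl libraries. chr5:150632013-150632880 ranked at percentiles 80.2 and 75.5 in siMena replicates 1 and 2, against 35.0 and 4.14 in siControl. In the ranking of siMena11a with siControl it stood at 61.6 and 70.7 in siMena11a, against 38.6 and 7.12 in siControl. In the ranking of siControl with untreated cells it stood at 53.2 and 13.2 in siControl, against 73.0 and 77.8 in untreated cells. Its tags were 72 and 27 in siMena11a, 46 and 28 in siMena, 53 and 21 in siControl, and 66 and 51 in untreated cells. In replicate 1, siMena thus had fewer tags than siControl though it ranked higher.

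In siControl against untreated cells, more members ranked higher than the regions as a whole. There were 107 ranked higher in both siControl libraries (21.4%, interval 17.9% to 25.3%), against 16.6% of the 4305 regions ranked, and 55 ranked lower (11.0%, interval 8.40% to 14.1%), against 15.0%. With same-numbered libraries paired, 38.0% of members ranked higher and 16.4% lower, against 27.6% and 25.9% of all regions ranked. Ranked among the members alone, the lean turned: 70 were higher and 91 lower. Without siControl replicate 2, 32.4% of members ranked higher, against 31.5% of all regions ranked, and 30.4% ranked lower, against 31.0%. chr6:166795985-166797204 had percentiles of 64.6 and 61.3 in siControl replicates 1 and 2, against 23.6 and 23.2 in untreated cells, with 77 and 28 tags against 56 and 39. Its tags were higher in replicate 1 and lower in replicate 2. chr7:36192179-36193288 was the furthest the other way, at 54.3 and 19.7 in siControl, against 96.7 and 83.3 in untreated cells, with 76 and 40 tags against 113 and 96.

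In siMena11a against siMena, the counts were again close to the background. Of the members, 50 ranked higher in both siMena11a libraries (10.0%), against 9.38% of the 544 regions ranked, and 64 ranked lower (12.8%), against 12.5%. chr15:99791186-99792048 had percentiles of 71.2 and 70.6 in siMena11a replicates 1 and 2, against 19.9 and 22.8 in siMena, with 69 and 25 tags against 23 and 16. The chromosome 1 member that was low in siMena, chr1:238036728-238037329, came next, at 93.9 and 60.7 in siMena11a, against 17.3 and 21.1 in siMena. Ranked lower were chr11:95522527-95523862, at 14.5 and 33.5 in siMena11a, against 54.4 and 77.2 in siMena, and chr7:16684952-16686133, at 16.2 and 1.10 in siMena11a, against 36.7 and 71.1 in siMena. The tags did not follow these ranks. At the chromosome 11 member they were 54 and 29 in siMena11a, against 39 and 26 in siMena, so higher in both replicates. At the chromosome 7 member they were 80 and 25, against 44 and 38, so lower in replicate 2 only.

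**Figure D5:**
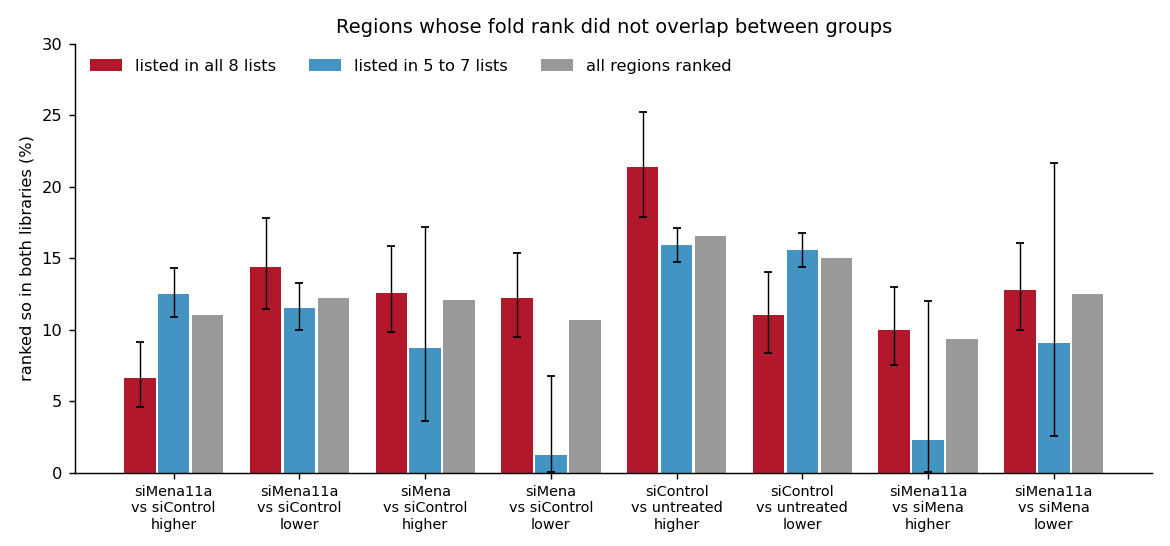
Share of regions whose fold rank was higher, or lower, in both libraries of the first group than in both of the second (linear axis, %), for regions listed in all 8 lists (red), in 5 to 7 lists (blue) and all regions ranked (grey); bars on the red and blue columns are 95% exact intervals. Members differ most from the grey column in siMena11a against siControl, higher (6.60% against 11.0%), and in siControl against untreated, higher (21.4% against 16.6%). From the blue column they differ most in siMena against siControl, lower (12.2% against 1.25%), where the blue column holds 80 regions.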

How the data were processed

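ATAC-seq peaks of each library came as a list with a row for each summit. The submitters' processing notes name MACS2 2.2.5, SAMtools 1.7, Bowtie2 2.3.4.2 and FastQC 0.11.5, in no stated order; trimming, removal of duplicates and any shift for the transposase are not given in the sources used here. In the files deposited by the authors, the score is 10 times the −log10 q in nearly all rows, the fold is a ratio of tags at the summit to those of the surroundings after adding 1 to both, and the −log10 p and −log10 q are those of the peak caller. The lists hold no peak with a −log10 q below 2.00.

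Read totals are not used here. The tags at a summit and the local background were recovered from the fold and the −log10 p by the Poisson formula, with an error under 0.001 in 100% of rows; the code was checked on simulated data. The lowest local background of a list was taken as its genome-wide background. A region took the strongest summit of a list, a peak was 1 distinct interval, and coordinates count from 1.

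Members, lists of named regions and tests were chosen with earlier results of these data known. Named regions were those highest or lowest in percentile, widest, narrowest, with most summits, closest, most isolated, just outside the rule, or with the largest rank gaps; members that kept their fold, and the width classes, were named after their values were seen. Group means of summit number were tested by exact permutation of libraries, two-sided. Distances from genes, promoter shares, base composition, motifs, gene lists and cell type markers were not analysed here, since no hg19 annotation or sequence was used. Software was matplotlib 3.10.9, SciPy 1.17.1, pandas 2.3.3 and numpy 2.4.6, under Python 3.11.15.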

Additional observations from a re-analysis of the deposited data

How the results depend on the processing

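The number of members, 500, moved to 85 when peaks of each list had to cover at least 50% of the region, to 294 at a score of at least 50, to 176 when every list was shortened to 1020 peaks, all 176 overlapping members, and to 12807 with only the replicate 1 lists required; the last, and leaving out members that keep their fold or are up to 400 bp wide, were chosen after seeing the data. Leaving out a library gave 500 to 1896. The median width was 251 bp for the part covered by every list. The median fold in untreated replicate 1 was 10.2 over all summits and 9.20 for regions of 5 to 7 lists, which gave 6.82 in untreated replicate 2 and 7.85 in siControl replicate 1. The nearest other member was 1002400 bp away, against 17201 bp for any region.

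Ranked among members alone, higher counts were 56 for siMena11a against siControl and 70 for siControl against untreated cells, with 91 lower for siControl against untreated. The replicate block, which pairs same-numbered libraries, gave 103 higher and 145 lower for siMena11a against siControl (20.6% and 29.0% of members, against 25.4% and 25.5% of all regions ranked), 124 and 128 for siMena against siControl (24.8% and 25.6%, against 27.2% and 22.8%), 190 and 82 for siControl against untreated (38.0% and 16.4%, against 27.6% and 25.9%), and 135 and 131 for siMena11a against siMena (27.0% and 26.2%, against 25.7% and 27.0%). A paired rule asks for fewer orderings, so counts grow. Nothing in the labels says that the numbers pair libraries; deviations of same-numbered libraries correlated at 0.587, 0.454, 0.244 and 0.496 over members in these comparisons. Leaving out a library also loosens the rule: 97 to 198 higher and 140 to 228 lower for siMena11a against siControl, 145 to 167 and 124 to 199 for siMena against siControl, 162 to 279 and 107 to 152 for siControl against untreated, and 114 to 187 and 147 to 168 for siMena11a against siMena. Over these 32 counts, the share of members minus that of all regions ranked ran from -11.4 to 18.3 percentage points. Differences in summits per member ran from -0.233 to 0.191, -0.389 to 0.019, -0.175 to 0.047 and -0.048 to 0.376, and changed sign on leaving out siMena11a replicate 2 (0.191) or siControl replicate 1 (0.090), siMena replicate 2 (0.019), siControl replicate 2 (0.047), and siMena11a replicate 1 (-0.048) or siMena replicate 2 (-0.040). The 8 results for leaving out narrow members, and the 8 for those that keep their fold, stayed within 1.5 times. The promoter window was not run. The median member had 22 tags in siMena replicate 2, the fewest of the 8 libraries.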
